A study of Mus musculus with 2 samples.

Results

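The cells described here are epithelial cells other than salivary secretory (acinar) cells, found in the single-cell RNA-sequencing library of normal mammary gland endothelial cells (NECs). They were chosen by transcripts. A cell needed 200 or more detected genes, under 10% of its unique molecular identifiers (UMIs, 1 per captured transcript) from mitochondrial genes, no UMI of the leukocyte gene Ptprc, 2 or more UMIs of the epithelial adhesion gene Epcam, no UMI of the endothelial genes Cdh5 or Pecam1, and under 10% of its UMIs from 9 salivary secretory genes. The rule found 623 cells among the 9047 NEC barcodes and the 9751 barcodes of both libraries. They made up 9.06% of the 6873 NEC cells that passed the limits without a Ptprc UMI, and they held 20.2% of the UMIs of those cells.

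The NECs were CD45-/CD31+ cells sorted from pooled normal mammary glands of C57BL/6 mice 6 to 8 weeks old. The title and the design text give normal glands, while the tissue and cell type labels of the same library name E0771 and TECs. The second library holds CD45-/CD31+ tumor endothelial cells (TECs) from pooled E0771 mammary tumors, and 1 of its 475 cells that passed the limits without a Ptprc UMI met the same rule. Animals were pooled into 1 library per tissue, so no test between samples was possible. Epithelial cells lie outside the target of the sort, and the study removed cells with Epcam before its own endothelial analysis. The intervals below are exact 95% intervals for counting error only, and cells of 1 library are not replicates.

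Mammary epithelium is built of luminal cells around a duct lumen and basal, or myoepithelial, cells around the luminal layer. Luminal cells make Krt8 and Krt18, the paired keratins of simple epithelium, and basal cells make Krt5 and Krt14, the keratins of basal layers. Luminal cells fall into a hormone-sensing lineage that carries receptors for estrogen, progesterone and prolactin, and a progenitor and alveolar lineage that gives rise to milk-secreting cells. Basal cells contract in response to oxytocin to expel milk.

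The label of epithelial cells was borne out by the markers of the epithelium. Krt8 had UMIs in 610 of the 623 cells and Krt18 in 608, with medians of 40 and 46 UMIs per cell and highest values of 296 and 283. In 4230 endothelial cells of the same library, which had 1 or more UMIs of both Cdh5 and Pecam1 and none of Ptprc or Epcam, Krt8 had UMIs in 12.6% of cells and no cell had more than 4. Summed over cells and divided by all UMIs of those cells, in the usual CPM unit of single-cell counts, Krt8 was at 4272 CPM in the epithelial cells against 35.0 CPM in the endothelial cells. Epcam, which chose the cells, ranged up to 216 UMIs with a median of 24. At the edge of the rule, 16 cells had exactly 2 Epcam UMIs, and 40 cells that met the rest of the rule had exactly 1. The highest share of salivary genes was 2.68% among the cells kept and the lowest among the 29 cells left out was 36.5%.

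The library was sorted for endothelial cells, so RNA of other cells was measured beside each result. The epithelial cells had a median of 10952 UMIs (648 to 61347) and the endothelial cells 3287.5 (505 to 29715). The 10 endothelial markers together were at 143 CPM in the epithelial cells (0 to 0.334% of a cell's UMIs) against 10506 CPM in the endothelial cells. Cdh5 and Pecam1 were at 0 by the rule. Of the markers the rule did not use, the VEGF receptor gene Flt1 was at 20.5 against 1926 CPM and Kdr at 10.7 against 1109 CPM. Bpifa2, a salivary gene, had UMIs in 94.9% of the epithelial and 83.6% of the endothelial cells, at 376 and 679 CPM, so UMIs of a gene occur here in cells of another type. Of the 7 immune genes, 5 had UMIs, at 19.2 CPM together and in 26 cells, with Ptprc and Cd52 at 0. Scrublet, a doublet caller, gave 0 calls among 6924 cells, so its calls removed no cell. The count would also read 0 if no threshold had been set, so it does not show that doublets were absent. Of the 3 barcodes shared with the tumor library, 0 were among the 623 cells.

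Against the endothelial cells, 187 of 2101 genes with enough counts (100 CPM or more in 1 of the groups and 10 or more UMIs in all) were 4-fold or more higher in the epithelial cells, which is 8.9%, and 395 were 4-fold or more lower, which is 18.8%. The rule chose the cells by this contrast, so the counts are a description, and the direction of marker genes that passed only through the group where they are high was fixed by the level filter. Of 12 general epithelial genes, 9 could be compared and 9 were higher, with a median log2 ratio of 6.88 beside -0.12 for all genes compared. They included Cldn3, Cldn4 and Cldn7, which encode claudins of tight junctions. Cldn3 was at 484 CPM against 2.30 CPM (log2 ratio 7.72, 7.26 to 8.22). Of the 10 endothelial genes, the 8 that could be compared were all lower, with a median of -6.32.

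The 10 genes with the highest ratios were Obp1a, Gm5938, Nrxn3, 3110079O15Rik, Snhg11, Cyp2f2, Tnip3, Clca3a2, Prlr and Kcnk1. Prlr, the prolactin receptor, had UMIs in 529 of the 623 cells, and Kcnk1, a potassium channel, in 401. Other genes of the 10 rested on few cells. Of the UMIs of Cyp2f2, a cytochrome P450 gene, 33.1% came from 1 cell and 64.7% from 3 cells. Obp1a is an odorant-binding protein gene. Of its 18604 UMIs, 73.3% came from 1 cell and 99.8% from 3 cells, and Gm5938 had 99.8% of its UMIs in 3 cells. The lowest ratios included the hemoglobin genes Hba-a2, Hbb-bs, Hbb-bt and Hba-a1, the endothelial C-type lectin gene Clec14a at 1.39 against 308 CPM, and Aqp7, a glycerol channel.

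The keratins split the cells into a large luminal and a small basal group. Each cell with 2 or more UMIs of Krt8, Krt18, Krt5 and Krt14 was classed by the part that came from Krt8 and Krt18. At 80% or more, 576 cells were luminal-keratin cells, 92.5% of the 623 (90.1 to 94.4%). At 20% or less, 25 were basal-keratin cells, 4.01% (2.61 to 5.87%). A further 20 cells lay between and 2 had too few keratin UMIs. The classes are ranges of a score, not cell types.

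**Figure D1:**
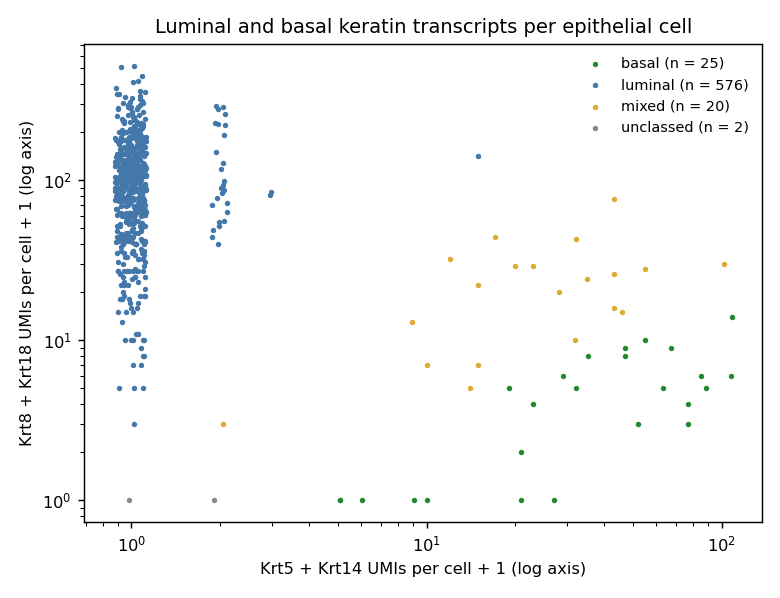
Each point is 1 of the 623 epithelial cells, with the UMIs of Krt5 and Krt14 plus 1 on the horizontal log axis (points spread sideways by a small random amount) and the UMIs of Krt8 and Krt18 plus 1 on the vertical log axis, colored by keratin class. Most of the 576 luminal-keratin cells stand in a column with no Krt5 or Krt14 UMI, while the 20 mixed and 25 basal-keratin cells spread along the basal axis.

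Few cells lay near the upper boundary. Of the luminal-keratin cells, 547 had no Krt5 or Krt14 UMI at all, and 0 cells had between 80 and 90% luminal keratin UMIs. The lower boundary was crowded. Between 10 and 20% luminal keratin UMIs there were 10 of the 25 basal-keratin cells, and 6 of the mixed cells lay from just above 20% to 30%. The mixed cells had medians of 6.5 Krt5, 16 Krt14, 4.5 Krt8 and 16 Krt18 UMIs, so both keratin pairs were well above single counts in them. They had a median of 11118.5 UMIs per cell beside 10955 in luminal-keratin and 10818 in basal-keratin cells. Scrublet gave no doublet calls in this library, which does not show that doublets were absent. Without the 20 epithelial cells among the top 5% of its scores, the luminal-keratin share was 92.4% and the basal-keratin share 4.15%. Whether the mixed cells were doublets was not tested further.

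In the basal-keratin cells Krt14 was at 2964 CPM and Krt5 at 806 CPM, against 4.26 and 2.43 CPM in the luminal-keratin cells. These genes defined the classes and are not read further. Other genes of the basal list were not used for the classes. Acta2, the smooth muscle actin that myoepithelial cells use to contract, was at 5927 against 39.1 CPM. Trp63, the transcription factor of basal epithelium, was at 145 against 1.22 CPM, and Oxtr, the oxytocin receptor, at 135 against 1.98 CPM. Of the 14 basal and myoepithelial genes, 10 reached the level at which genes were compared, each of them only through the basal-keratin cells, so a count of those that were higher would say nothing more. Of the others, Sox10 was at 20.7 against 13.7 CPM and Cdh3 at 96.8 against 0.608 CPM. Over all 1830 genes compared, 166 (9.07%) were 4-fold or more higher in luminal-keratin cells and 149 (8.14%) in basal-keratin cells.

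The genes highest in luminal-keratin over basal-keratin cells included Areg (amphiregulin, a ligand of the epidermal growth factor receptor), Prlr, Aqp5 (a water channel), Slc12a2 (a sodium, potassium and chloride cotransporter) and Krt19. Areg was at 2211 against 6.92 CPM, the latter from 2 UMIs (log2 ratio 8.32, 6.47 to 11.37), and Prlr at 4966 against 24.2 CPM. Those highest in basal-keratin cells included Fst (follistatin, which binds activin), the chemokine gene Cxcl14, the keratin gene Krt25, Actg2, Col17a1 and Cnn1. Krt25, a keratin of the hair root sheath, had 62 UMIs in 6 of the 623 cells, 53 of them in 3 cells. Ube2c, a gene of mitosis, was also among them at 221 against 1.06 CPM. Some markers of skin keratinocytes were higher in the basal-keratin cells too. The 10 genes of that list were together at 1964 CPM there (0 to 0.579% of a cell's UMIs) and at 170 CPM in luminal-keratin cells (0 to 0.417%), with Krt15 at 377 against 2.43 CPM and Lgals7 at 1504 against 50.9 CPM. Krt1, Krtdap and Krt6a of the list had 0 UMIs in basal-keratin cells. The part of skin keratinocytes in the basal differences was not tested.

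Wnt4, although a gene of the hormone-sensing list, was at 205 CPM in luminal-keratin and 107 CPM in basal-keratin cells, within 4-fold.

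Clustering separated the 623 cells further than the keratins. It was run on variable genes after every gene of the rule and of the marker lists had been left out, so that the lists could be read in the clusters afterwards. Cluster sizes and leading genes remain descriptions. At the coarser resolution there were 3 clusters. One of 438 cells (70.3%) had 10 of the 11 hormone-sensing genes raised and is called hormone-sensing luminal-like. Another of 127 cells (20.4%) had 11 of the 13 progenitor and alveolar genes raised and is called luminal progenitor and alveolar-like. The third, of 58 cells (9.31%), had 13 of the 14 basal and myoepithelial genes raised and is called basal and myoepithelial-like.

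The clusters followed the keratin classes without being the same. The hormone-sensing-like cluster held 437 luminal-keratin cells and 1 with too few keratin UMIs. The 127 progenitor and alveolar-like cells were all luminal-keratin cells. The basal-like cluster held the 25 basal-keratin and 20 mixed cells, and also 12 luminal-keratin cells. Median depth differed, at 11744 UMIs in hormone-sensing-like, 6665 in progenitor and alveolar-like and 10977 in basal-like cells, and so did the median mitochondrial share, at 5.63%, 3.98% and 5.22%. The part of depth and mitochondrial share in the differences below was not tested, beyond the thinned values given.

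**Figure D2:**
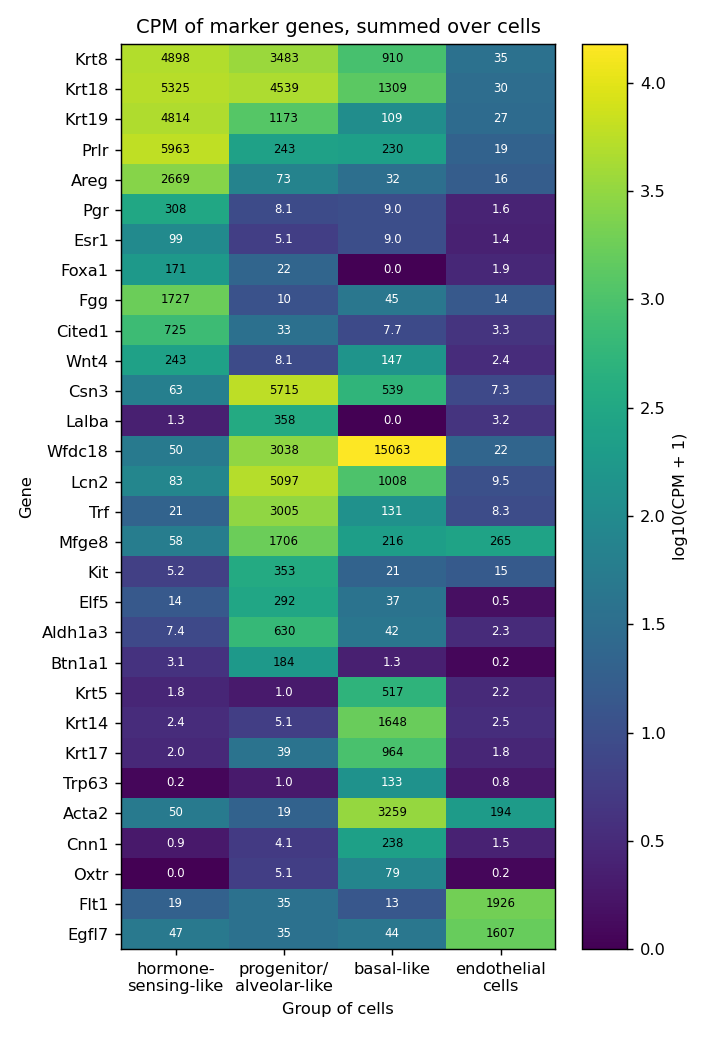
Rows are marker genes and columns are the 3 epithelial clusters and the endothelial cells; color is log10 of CPM plus 1 and the printed value is CPM summed over the cells of the group. Prlr, Areg and Pgr are highest in the hormone-sensing-like column, Csn3, Lalba, Kit and Elf5 in the progenitor and alveolar-like column, Krt5, Krt14 and Acta2 in the basal-like column, and Flt1 and Egfl7 in the endothelial column.

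The hormone-sensing-like cells carried the hormone receptors. Prlr had UMIs in 435 of 438 cells, with a median of 69.5 and a highest value of 218 UMIs, and stood at 5963 CPM against 243 CPM in progenitor and alveolar-like cells and 230 CPM in basal-like cells. Pgr, the progesterone receptor, had UMIs in 88.6% of the cells (median 3, highest 20) at 308 CPM, against 8.11 and 9.01 CPM in the other clusters. Esr1, the estrogen receptor, had UMIs in 64.2% (median 1, highest 8) at 98.7 CPM, against 5.07 and 9.01 CPM. The 3 receptors were thus all at their highest in 1 cluster, and Esr1 was the one with the fewest counts per cell. All 3 belong to the list that named the cluster, so this is a description.

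The partners and targets of the receptors on the same list were less uniform. Areg, which estrogen induces during duct growth, had UMIs in 387 of 438 cells and ranged up to 384 UMIs with a median of 15.5. It was at 2669 CPM against 73.0 and 32.2 CPM. Foxa1, which opens chromatin for the estrogen receptor, was at 171 CPM against 22.3 CPM and 0 UMIs in the 58 basal-like cells, which allows up to 3.86 CPM at 3 counts. Cited1, a coactivator of the estrogen receptor, was at 725 against 33.5 and 7.72 CPM. Wnt4, a signal that progesterone induces, was at 243 CPM against 8.11 CPM in progenitor and alveolar-like cells but 147 CPM in basal-like cells. Ly6a, which encodes the surface protein Sca-1, was at 1224 CPM against 46.7 and 107 CPM, but endothelial cells had 2280 CPM of it. Tnfsf11, the RANKL gene and another progesterone target, had 0 UMIs in all 623 cells, which allows up to 0.418 CPM over them at 3 counts.

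Genes that led the hormone-sensing-like cluster were Muc13, a mucin, Fgb and Fgg, which encode fibrinogen chains, Stc2, a secreted stanniocalcin, and Abcc8. Fgg was at 1727 CPM against 10.1 CPM in progenitor and alveolar-like cells. Ptn, Slc12a2 and Wfdc2 had UMIs in 96.8%, 99.8% and 99.5% of hormone-sensing-like cells. Slc5a5 and Nupr1 of the salivary duct list were at 298 and 1622 CPM there. The kallikrein Klk1 of the same list had 0.542% of its UMIs in this cluster, so the duct list did not move as a whole.

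The RefSeq promoters of 2 hormone-sensing genes are shown because these genes separated the luminal clusters, 250 bases before to 50 bases after the annotated start (build GRCm38.p6). Capitals mark motifs found by a letter search on both strands. In Prlr, 1 of 3 annotated starts (chr15:10223656-10223955, plus strand) held TTCNNNGAA, the core that STAT factors bind, and the counts do not tell which start was used. Areg (chr5:91139349-91139648, plus strand) held TATAAA and TGACGTCA, the full cyclic AMP response element. Of 32851 promoters, 8.30% held TTCNNNGAA, 13.6% held TATAAA and 1.79% held TGACGTCA.

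Prlr: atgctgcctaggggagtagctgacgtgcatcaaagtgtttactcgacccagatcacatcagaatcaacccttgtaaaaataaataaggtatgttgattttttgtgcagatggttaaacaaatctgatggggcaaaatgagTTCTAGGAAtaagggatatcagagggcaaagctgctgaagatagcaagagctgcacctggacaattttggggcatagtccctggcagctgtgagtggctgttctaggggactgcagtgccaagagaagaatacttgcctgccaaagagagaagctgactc
Areg: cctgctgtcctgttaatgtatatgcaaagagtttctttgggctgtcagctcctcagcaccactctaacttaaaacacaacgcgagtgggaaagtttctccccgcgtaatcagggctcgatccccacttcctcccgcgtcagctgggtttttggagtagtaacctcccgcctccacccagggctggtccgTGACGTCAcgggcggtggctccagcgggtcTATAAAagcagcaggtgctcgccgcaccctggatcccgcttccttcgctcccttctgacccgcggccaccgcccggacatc

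Among the 16 promoters of the 10 hormone-sensing genes that had an entry, 2 held TTCNNNGAA, 5 held TATAAA and 1 held TGACGTCA. A match describes letters and was not tied to binding in these data.

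The progenitor and alveolar-like cells held most of the milk protein transcripts. Csn3 and Lalba belong to the list that named this cluster, so their higher levels in it are a description. Csn3, which encodes kappa-casein, the casein that coats milk micelles, lies at chr5:87925579-87932665 (GRCm38). It had UMIs in 121 of 127 cells of this cluster, 98 of them with 10 or more, with a median of 28 and a highest value of 253 UMIs. This cluster held 88.1% of all Csn3 UMIs of the 623 cells. In hormone-sensing-like cells 62 of 438 had a UMI and 7 had 10 or more, and in endothelial cells 116 of 4230 had a UMI and none had more than 4. The level was 5715 CPM (5567 to 5866) against 63.3 CPM (56.8 to 70.4) in hormone-sensing-like cells, and the interval of the log2 ratio was 6.34 to 6.66.

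**Figure D3:**
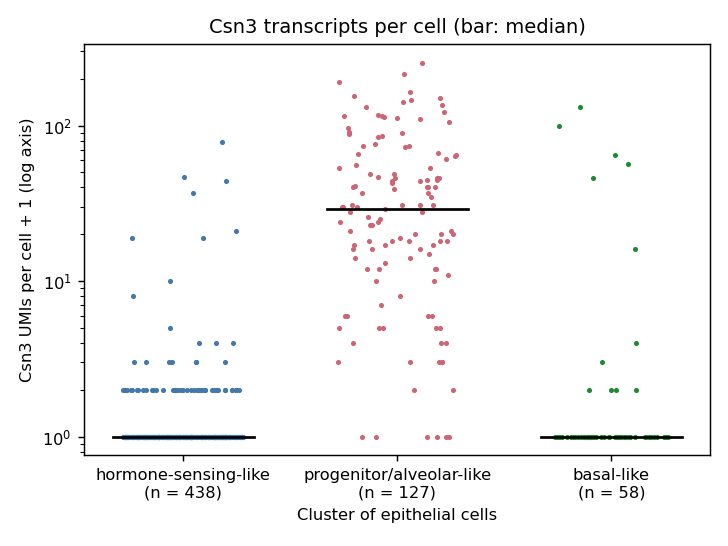
Each point is 1 cell, with its Csn3 UMIs plus 1 on a log axis, by cluster; black bars are medians. The progenitor and alveolar-like cells have a median of 28 UMIs, while the medians of the hormone-sensing-like and basal-like cells are 0, with single cells reaching 77 and 131 UMIs.

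Across all 623 cells, Csn3 had a UMI in 195, or 31.3% (27.7 to 35.1%). Thinned to 1000 UMIs per cell, which leaves out 2 of the 623 and 96 of the 4230 endothelial cells, the share was 20.6% of the epithelial and 0.701% of the endothelial cells. By cluster the thinned shares were 85.8% in progenitor and alveolar-like, 10.3% in basal-like and 2.98% in hormone-sensing-like cells. The order of the clusters was the same at equal depth.

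Lalba, which encodes alpha-lactalbumin, the regulatory subunit of lactose synthase, had UMIs in 40 cells. The progenitor and alveolar-like cluster held 98.1% of its UMIs, at 358 CPM with up to 51 UMIs in a cell, against 1.29 CPM in hormone-sensing-like and 0 UMIs in basal-like cells. At 1000 UMIs per cell, 20 cells had both Csn3 and Lalba, 108 had Csn3 alone and 0 had Lalba alone. Csn1s2a and Csn1s2b, which encode other caseins, had 3 UMIs and 1 UMI in all, every one in this cluster. Csn2, Wap and Csn1s1 were not analysed here.

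Several of the 6 listed genes of milk fat secretion were higher in the same cluster. Btn1a1, which encodes the butyrophilin of the milk fat globule membrane, was at 184 against 3.14 CPM in hormone-sensing-like cells. Plin2, a lipid droplet coat gene, was at 272 against 25.5 CPM, and Xdh, which acts with butyrophilin, at 76.1 against 2.58 CPM. Mfge8, which marks the milk fat globule and is also on the naming list, was at 1706 against 57.6 CPM. Fasn, the fatty acid synthase gene, was at 20.3 against 28.6 CPM and did not share this pattern, and Cidea was at 17.2 against 2.21 CPM. Xdh, Fasn and Cidea were below the level at which genes were compared.

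Other genes of the naming list, Elf5, Kit, Aldh1a3, Lcn2, Trf and Plet1, also differed between the 2 luminal clusters. The name fixed their direction, so the values are a description. Elf5, the transcription factor of alveolar cells, was at 292 against 13.7 CPM, and Kit, a receptor of luminal progenitors, at 353 against 5.17 CPM. Aldh1a3, a retinal dehydrogenase, was at 630 against 7.38 CPM, and Lcn2, an iron-siderophore binding protein gene, at 5097 against 82.5 CPM. Trf, which encodes transferrin, was at 3005 against 20.7 CPM, and Plet1 had UMIs in 127 of 127 cells. Genes outside the list among the 10 highest ratios were Slc5a7, Clic6, Gpc6, Gm266, Igfbp5 and Chil1. Igfbp5, which binds insulin-like growth factors, was at 6776 against 78.1 CPM.

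**Figure D4:**
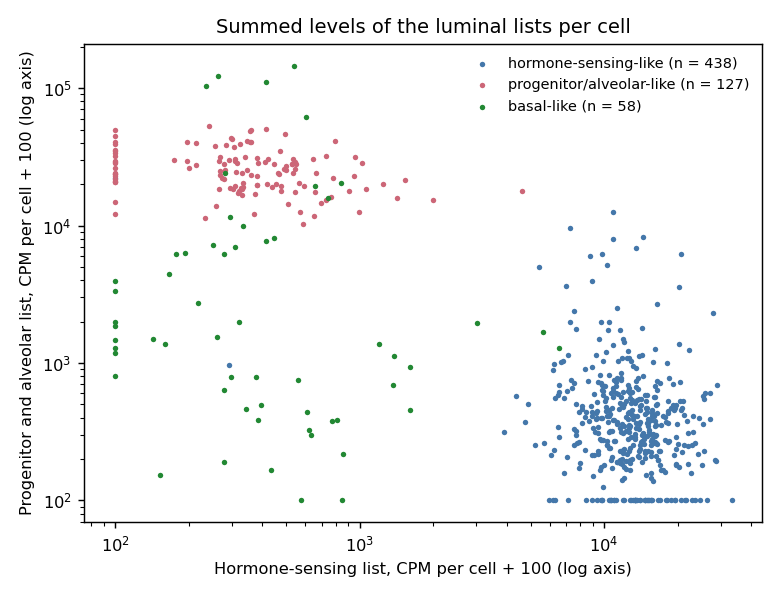
Each point is 1 cell, with the summed CPM of the 11 hormone-sensing genes plus 100 on the horizontal log axis and of the 13 progenitor and alveolar genes plus 100 on the vertical log axis, colored by cluster. The 438 hormone-sensing-like and 127 progenitor and alveolar-like cells form separate clouds, and the 58 basal-like cells spread between low and high progenitor values.

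Between these clusters, 161 of 1746 genes compared were 4-fold or more higher in progenitor and alveolar-like cells (9.22%) and 148 were 4-fold or more lower (8.48%). Of the 13 progenitor and alveolar genes, 12 could be compared and all 12 were higher, with a median log2 ratio of 5.93. Of the 11 hormone-sensing genes, 8 could be compared and all 8 were lower, with a median of -4.81. The median over all genes compared was -0.19. The clusters were named by these lists and most of the genes passed the filter only through the cluster where they are high, so the direction is fixed and the counts are a description. In single cells, 434 of 438 hormone-sensing-like cells had more UMIs of the hormone-sensing than of the progenitor list, and 127 of 127 progenitor and alveolar-like cells had the reverse.

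How often prolactin receptor and kappa-casein transcripts were found in the same cell depended on depth. With all UMIs, 142 of the 195 cells with Csn3 also had Prlr, and 53 had Csn3 without Prlr. At 1000 UMIs per cell, 416 of 621 cells had Prlr without Csn3, 98 had Csn3 without Prlr, 30 had both and 77 had neither. For Pgr and Kit, 113 cells had Pgr alone, 45 Kit alone, 2 both and 461 neither, counts too sparse to read further. The progenitor and alveolar-like cells were not without Prlr UMIs. After thinning, 14.2% of them had 1 or more, against 2.39% of endothelial cells. With all UMIs, 1 cell held 87 of the cluster's 240. The part of RNA from other cells in these counts was not tested. Stat5a, which carries the prolactin signal to the nucleus, was at 136 CPM in hormone-sensing-like and 43.6 CPM in progenitor and alveolar-like cells, within 4-fold, and Stat5b was at 37.5 and 40.6 CPM.

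Other transcription factors of luminal cells varied in how far they differed between the luminal clusters. Of the 9 listed, 7 could be compared and 3 were 4-fold or more higher in progenitor and alveolar-like cells, beside 9.22% of all genes compared, too few genes to set against that share. Gata3, a factor that luminal fate requires, was at 220 CPM in hormone-sensing-like and 151 CPM in progenitor and alveolar-like cells, and Sox9 at 922 and 1010 CPM. Cebpb and Nfib, which act in alveolar differentiation, were 4-fold or more higher in the latter, Cebpb at 1599 against 135 CPM and Nfib at 857 against 174 CPM. Foxi1, an ionocyte factor, had 21 of its 24 UMIs in the progenitor and alveolar-like cells.

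The promoters of 2 progenitor and alveolar genes are shown for the same reason. Lalba (chr15:98482634-98482933, minus strand) held none of the 3 motifs in this window, and Wfdc18 (chr11:83708754-83709053, plus strand), which encodes a whey acidic protein family member, held TATAAA. Among 11 promoters of the 9 listed genes with an entry, 0 held TTCNNNGAA, 2 held TATAAA and 0 held TGACGTCA.

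Lalba: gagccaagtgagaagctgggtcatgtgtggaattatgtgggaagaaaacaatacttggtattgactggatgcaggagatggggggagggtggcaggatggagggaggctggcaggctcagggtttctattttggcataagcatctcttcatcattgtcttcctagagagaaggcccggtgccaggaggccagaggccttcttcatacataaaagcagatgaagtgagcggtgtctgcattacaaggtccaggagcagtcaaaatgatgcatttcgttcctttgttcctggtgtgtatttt
Wfdc18: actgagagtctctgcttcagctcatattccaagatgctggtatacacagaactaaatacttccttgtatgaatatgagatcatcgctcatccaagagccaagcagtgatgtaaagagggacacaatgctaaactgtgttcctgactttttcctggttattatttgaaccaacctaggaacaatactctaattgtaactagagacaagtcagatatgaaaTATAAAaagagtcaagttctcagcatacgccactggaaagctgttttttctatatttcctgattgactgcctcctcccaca

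The basal-like cluster was smaller and more varied. Of 1770 genes compared with the other epithelial cells, 149 were 4-fold or more higher (8.42%) and 131 lower (7.4%). The cluster was named by the basal and myoepithelial list, so its direction is fixed by the choice. The 10 highest ratios, led by Obp1a, Gm5938, Esp6, Esp18 and Klk1, were all of genes outside that list. The name therefore does not describe every cell of the cluster. Krt14 had UMIs in 44 of the 58 cells (median 14, highest 94) and Acta2 in 29 (median 0.5, highest 264). A finer clustering placed 33 of the 58 cells in 1 cluster that again carried the basal genes. In those 33 cells Acta2 was at 5611 CPM with a median of 54 UMIs, Krt17 at 1286 CPM, Trp63 at 154 CPM and Oxtr at 136 CPM. Their leading genes were Actg2, a smooth muscle actin, Cxcl14 and Lama1, a laminin chain of basement membranes. Some markers of other cell types were also higher in the basal-like cluster. The skin keratinocyte list was at 1323 CPM in its 58 cells, against 132 CPM in hormone-sensing-like and 360 CPM in progenitor and alveolar-like cells, with Krtdap at 0, and at 2172 CPM in the 33 cells. Krt28, another keratin of the hair root sheath, was among the leading genes of those 33 cells and had UMIs in 11 of all 623 cells. The immune list was at 116 CPM in the 58 cells, 88 of its 90 UMIs from Cd74, with Ptprc, Cd52, Tyrobp, Cd3e and Cd79a at 0. Dcn, a fibroblast gene, had 493 UMIs in all epithelial cells, 67.7% of them in the basal-like cluster, while Lum, another, had 0. The part of other cell types in these levels was not tested.

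Milk protein transcripts did not separate luminal from basal keratins, and 3 cells decided that. The 4 milk protein genes analysed were at 971 CPM in luminal-keratin and 934 CPM in basal-keratin cells, a log2 ratio of 0.06 (-0.12 to 0.24). Of the 25 basal-keratin cells, 6 had a Csn3 UMI, and cells with 131, 64 and 56 UMIs held 93.0% of the 270. Without those 3 cells, chosen after their values were seen, the basal level was 69.4 CPM and the ratio 3.81 (3.16 to 4.54). Each of the 3 had Krt14 UMIs (17, 3 and 3) and Acta2 UMIs (20, 5 and 8), and 0 Lalba UMIs. Their totals of 5535, 4678 and 5093 UMIs were low for the class, whose median was 10818.

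Cells with UMIs of several mitotic genes were rare and lay in the basal-like cluster. Of the 623 cells, 8 had UMIs of 3 or more of 6 mitotic genes, and all 8 were in the basal-like cluster, 4 of them basal-keratin and 3 mixed cells. The DNA topoisomerase gene Top2a was at 136 CPM there, against 2.03 CPM in each luminal cluster. Of its 119 UMIs in all 623 cells, 77 came from 3 cells. Clustering left out the 6 mitotic genes but not all genes of the cell cycle. The part of such genes in the grouping of the 8 cells was not tested.

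The remaining cells of the basal-like cluster fell in 2 small fine clusters that also took cells from the others, and these are left without a name. One of 25 cells was led by Gsta3, Cyp2f2, Ifi27l2a, 4833423E24Rik and Ces1d. It held 18580 of the 18604 Obp1a UMIs, and Wfdc18 stood at 31491 CPM with up to 7075 UMIs in 1 cell. Pip and Klk1, genes of the salivary lists, were at 4175 and 1408 CPM in it, with 1427 Pip UMIs in 1 cell and a median of 0. These levels therefore rest on single cells. The other, of 21 cells, was led by genes that included Ucma and Edaradd. It had Rgs5, a pericyte gene, at 578 CPM and Acta2 at 702 CPM, and 11 of its cells were mixed in keratin class. These levels pool 11 basal-like, 9 hormone-sensing-like and 1 progenitor and alveolar-like cells. Of the Rgs5 UMIs of all epithelial cells, 88.2% lay in the hormone-sensing-like and 2.46% in the basal-like cluster. The Rgs5 level is therefore not a trait of the basal-like cells.

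Within the hormone-sensing-like cells, finer clustering gave 6 clusters of 41 to 111 cells that lay wholly inside. They keep numbers, because none passed the naming rule. All 6 had Prlr in 97.3% or more of cells, at 3856 CPM in cluster 4 to 7719 CPM in cluster 6. Areg ran in the other direction in part, at 4343 CPM in cluster 4 and 1481 CPM in cluster 3. Cited1 was at 1225 CPM in cluster 4 and 227 CPM in cluster 3, while Slc5a5, the iodide transporter, was at 42.9 and 558 CPM and Prom1, which encodes CD133, at 17.0 and 190 CPM. Wfdc2 was at 11068 CPM in cluster 4 and 2728 CPM in cluster 3, and Aoc1, a diamine oxidase, had UMIs in 9 of 75 cells of cluster 4 and 55 of 81 cells of cluster 3. Unlike the listed genes, Wfdc2 and Aoc1 were not left out of the clustering, so their differences are a description. Esr1 was at 99.1 and 105 CPM in these clusters, with overlapping intervals (81.6 to 119 and 84.7 to 129). Over the 6 clusters Esr1 ran from 63.7 CPM in cluster 2 to 151 CPM in cluster 5.

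**Figure D5:**
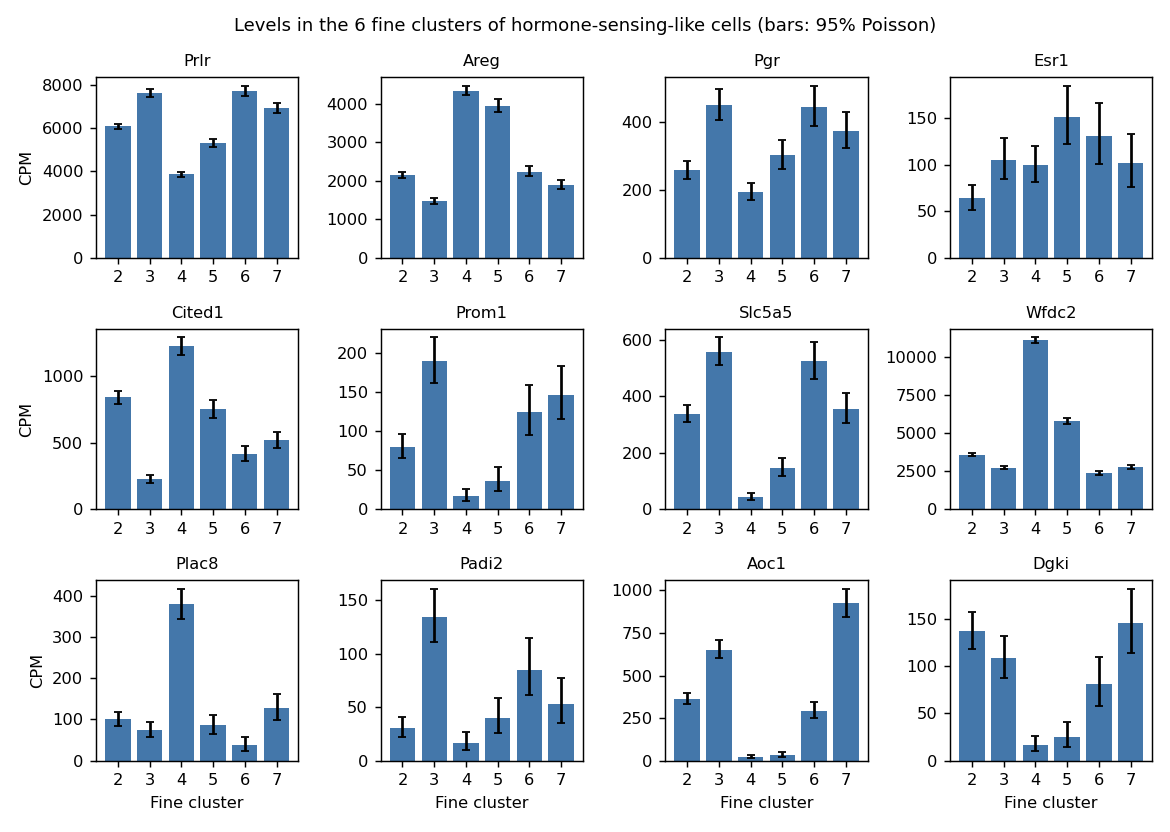
Each panel is 1 gene, with bars for the CPM in fine clusters 2 to 7 of the hormone-sensing-like cells and error bars for the exact 95% Poisson interval, which covers counting error only. Cluster 4 is highest for Areg, Cited1 and Wfdc2 and lowest for Prlr, Prom1 and Slc5a5. Wfdc2, Plac8, Padi2, Aoc1 and Dgki were not left out of the clustering.

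Cluster 4 was led by Aldh3a1, Wfdc3 and Plac8, cluster 3 by Padi2 and Cdh13, and cluster 7 by Alox15 and Aoc1. Median mitochondrial shares were 4.69% in cluster 4 and 7.27% in cluster 5 and 7.35% in cluster 6, and median UMIs ran from 9203 in cluster 6 to 14175 in cluster 4. The part of these in the differences was not tested.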

How the data were processed

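The authors mapped the reads with the Cell Ranger pipeline and deposited a table of UMI counts per gene and cell for each library, and their processing notes name Cell Ranger, Seurat and build mm10. The deposited counts are raw and 1 library per tissue was available, so levels were compared as CPM of summed UMIs, with exact Clopper-Pearson, Poisson and conditional binomial 95% intervals that cover counting error only, and no test was made. Cells were filtered at 200 genes and under 10% mitochondrial UMIs. A gene was compared at 100 CPM or more in 1 group and 10 UMIs over both and called at 4-fold, and against 0 UMIs a floor of 3 counts was used. Clustering used scanpy 1.11.5 with 2000 variable genes, from which the 89 that belong to the rule or the lists were left out, 15 components, 15 neighbors and resolutions of 0.1 and 1, which were set after seeing the data. A cluster took a list's name when at least 3 genes of the list were raised and 1 was among the cluster's 10 leading genes. A raised gene had a UMI in 25% or more of the cluster's cells. Its summed CPM was 2-fold or more over the other epithelial cells. The library's barcodes held 500 to 327449 UMIs. The interval method was tested on simulated Poisson sums per group. These leave out the spread between cells, so coverage near 95% follows from the setting and is a check of the code only. For epithelial over endothelial cells (1605 genes) the simulated ratio lay inside its interval in 99.5% of 200 altered and 94.5% of unaltered genes, and for luminal-keratin over basal-keratin cells (1509 genes) in 96.5% and 94.5%. The members and lists were chosen with earlier results of these data known. The text names genes of the rule and the lists, the 10 largest ratios per comparison and direction, and up to 10 leading genes per cluster. Gene positions are from GENCODE M21 and promoters from RefSeq.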

Additional observations from a re-analysis of the deposited data

How the results depend on the processing

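Of 94 recomputed values for 11 results, 73 stayed within their interval or within 1.5 times the count, 21 moved and 0 changed the sign of a called value. A change of sign was counted only for a ratio whose interval excluded 0. The milk protein ratio was not such a ratio, and its sign did change, to -0.57 as a mean over cells. Salivary genes under 5% kept the same 623 cells and 500 or more genes kept 622, so values under these settings could hardly move. With 1 or more Epcam UMIs the luminal-keratin share was 87.5%, the basal-keratin share 6.03% and the milk protein log2 ratio 0.30, and with 3 or more the ratio was 1.33. With under 5% mitochondrial UMIs, 267 cells remained, with a basal-keratin share of 6.74%, a Csn3 share of 43.8% and a ratio of 0.42. That limit kept 155 of 438 hormone-sensing-like and 87 of 127 progenitor and alveolar-like cells. With Cdh5 and Pecam1 UMIs allowed the luminal-keratin share was 90.04% and the ratio 0.72. Thinned to 1000 UMIs the Csn3 share was 20.6%. Keratin limits of 90% and 10% gave a basal-keratin share of 2.41% and a ratio of 0.50, 5 or more keratin UMIs a ratio of 0.27, and the mean over cells a ratio of -0.57. Without the 3 basal-keratin cells richest in Csn3 it was 3.81, an alternative chosen after seeing the data, so the milk protein ratio rests on those 3 cells. With no minimum level, 1715 genes were 4-fold higher and 1895 lower in the epithelial than in the endothelial cells, and 591 higher and 1337 lower in luminal-keratin than in basal-keratin cells, since more genes are compared. The progenitor and alveolar-like cluster had 122 to 151 cells over 4 alternatives chosen after seeing the data, and its Csn3 log2 ratio over the other epithelial cells was 5.54, and 4.96 at resolution 0.05. No paired analysis was possible because there was 1 library per group. Depth limits what single cells show of Esr1, Elf5 and Kit, which had medians of 1 to 2 UMIs even in their own clusters.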

Other observations

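Cells outside the rule also held epithelial transcripts. A further 301 cells had 2 or more Epcam UMIs and also a Cdh5 or Pecam1 UMI, 171 of them exactly 1 such UMI and 66 of them 2 or more of both. Their Krt8 level was 2989 CPM, Prlr was at 3164 CPM and Csn3 at 584 CPM, and their endothelial list was at 1037 CPM, between the 143 CPM of the epithelial and the 10506 CPM of the endothelial cells. Their median depth was 11951 UMIs, and 20 of them had 10% or more salivary UMIs. Another 156 cells met the rule except for 10% or more mitochondrial UMIs, and 112 of these had more UMIs of the hormone-sensing than of the progenitor list, while 7 had 10 or more Csn3 UMIs.

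The immediate early gene Fos was at 1193 CPM in the epithelial and 2254 CPM in the endothelial cells, and within the epithelium at 832 CPM in hormone-sensing-like, 2149 CPM in progenitor and alveolar-like and 2501 CPM in basal-like cells. Atf3, another, was at 1986 CPM in the epithelial and 630 CPM in the endothelial cells.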
